A study of Homo sapiens with 6 samples.

Results

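The genes described here encode 9 enzymes of the methionine cycle, transsulfuration and the use of S-adenosylmethionine: MAT2A, MAT2B, AHCY, MTR, MTRR, CBS, CTH, MTAP and PRMT5. They were taken by symbol from count tables that list 28265 genes, and all 9 were found. The cells were MDA-MB-231, a human breast cancer line known as mesenchymal and triple-negative, and MDA-MB-231GlnIND, a derivative that grows without glutamine. Parental cells were kept in RPMI with glutamine and 10% fetal bovine serum. GlnIND cells had spent more than 6 weeks in RPMI without glutamine and with 10% dialysed serum. Cell population, glutamine and type of serum thus differed together. Polyadenylated RNA of 3 libraries per group was sequenced, and nothing in the labels tells whether these were separate cultures or whether GlnIND is 1 clone.

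In the methionine cycle, methionine and ATP are joined into S-adenosylmethionine, the methyl donor of most methylation reactions. Each methyl transfer leaves S-adenosylhomocysteine, which is split into adenosine and homocysteine. Homocysteine is then either methylated back to methionine, with a methyl group from folate and with cobalamin as cofactor, or joined to serine by transsulfuration to make cysteine for glutathione. A side branch uses S-adenosylmethionine for polyamines and leaves methylthioadenosine, which MTAP returns towards methionine. Methylthioadenosine is also known to compete with S-adenosylmethionine at PRMT5, and many tumours have lost MTAP together with CDKN2A.

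Total counts were 18256219 to 21741371 in the parental libraries and 21276815 to 24594248 in the GlnIND libraries. Levels are given as CPM (a gene's share of the library's counts, scaled by TMM), and differences as log2 fold changes of GlnIND over parental cells from edgeR's quasi-likelihood test, called at a Benjamini-Hochberg adjusted p under 0.05 over all 13949 tested genes. These p-values reflect the spread among the libraries alone, and that spread may be technical. In bulk RNA, fewer cells of a type and less RNA per cell cannot be told apart. Parental 1 stood apart from the other parental libraries: its correlation with them in log2 CPM across genes was 0.985 and 0.986, against 0.992 between parental 2 and 3 and at least 0.994 among GlnIND libraries. Of the markers of the line, VIM was at 3816 to 4290 CPM in parental and 5997 to 6139 CPM in GlnIND libraries and rose, while CD44, KRT8 and KRT18 were lower, with log2 fold changes of -0.30, -1.12 and -1.45. ESR1, PGR and CDH1 were at most at 0.457 CPM. ERBB2 was at 31.5 to 41.4 CPM in parental and 61.8 to 65.2 CPM in GlnIND libraries and rose by 0.82 on the log2 scale. EPCAM was at 12 to 17.2 CPM in parental and 1.88 to 2.61 CPM in GlnIND libraries. The summed level of 6 markers of other cell types was 6.17 to 8.31 CPM in parental and 16.1 to 17.3 CPM in GlnIND libraries. PECAM1 and COL1A1 carried it, while PTPRC, DCN, KRT5 and ALB were each at most at 0.25 CPM. Whether these markers have a part in the results below was not tested.

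CTH, the enzyme that releases cysteine at the end of transsulfuration, was 1.95-fold higher in GlnIND cells. MAT2A and MAT2B, the catalytic and regulatory subunits that make S-adenosylmethionine outside the liver, were 1.19-fold and 1.22-fold higher. MTR, the methionine synthase that methylates homocysteine, was 1.44-fold lower. AHCY, MTRR and PRMT5 were not called, and CBS and MTAP had too few counts to be tested. The tested genes lie on chromosomes 1 (CTH and MTR), 2 (MAT2A), 5 (MAT2B and MTRR), 14 (PRMT5) and 20 (AHCY). Of the 7 tested genes 3 rose and 1 fell, where 56.3% of all tested genes were called, 28.4% higher and 27.9% lower (3965 and 3888 genes, or 5354 and 2810 with library totals alone). The share of called genes was thus close to that of the whole table. For 4 of the 7 all libraries of a group lay beyond all of the other, 2 in each direction, against 65.0% of all tested genes. The median absolute log2 fold change was 0.25 over the 7 genes and 0.40 over all tested genes.

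**Figure D1:**
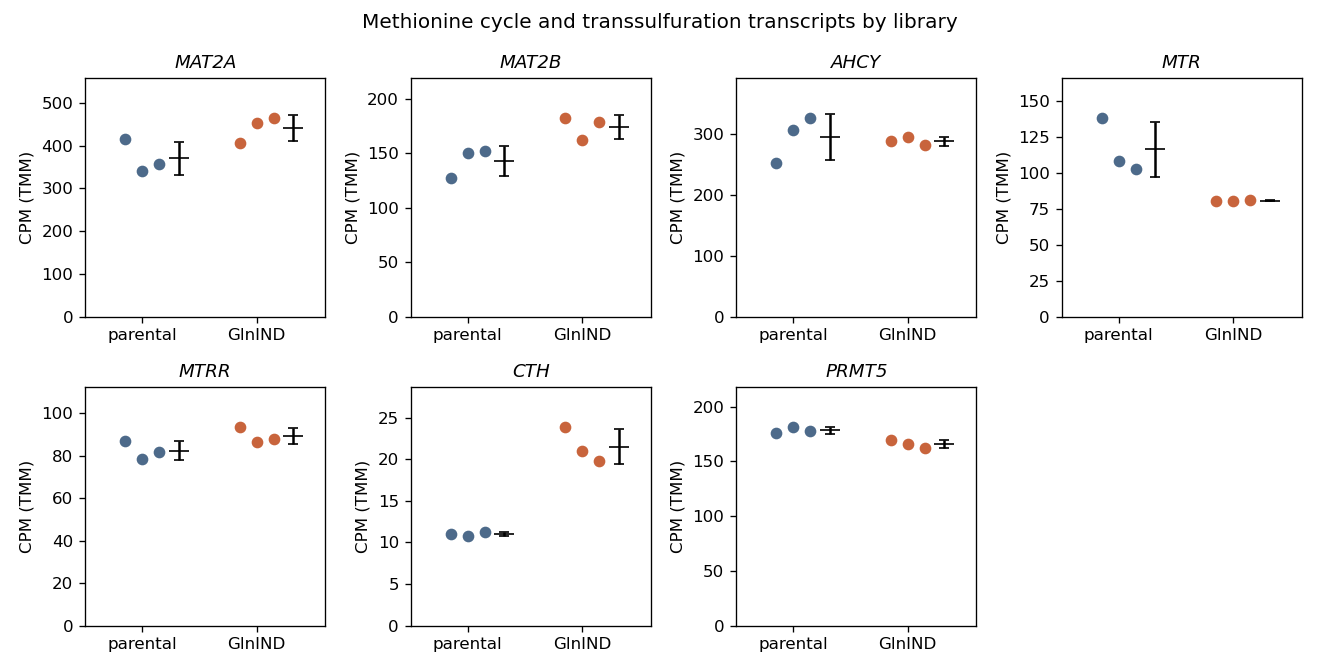
CPM (TMM-scaled, axes from 0) of the 7 tested genes in each of 3 parental and 3 GlnIND libraries, in the order of their replicate numbers, with the group mean and SD as a black bar. The groups are apart for CTH, MTR, MAT2B and PRMT5, and were so in 65.0% of all tested genes. Parental 1 lies inside the GlnIND range for MAT2A and below all other libraries for AHCY.

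MAT2A was at 415, 341 and 357 CPM in parental libraries 1 to 3 and at 407, 452 and 464 CPM in GlnIND libraries 1 to 3. The groups overlapped, since parental 1 lay above GlnIND 1. GGCX, which overlaps MAT2A in the annotation, had 4651 parental and 4368 GlnIND counts, and the strand setting of the counting is not given in the sources used here. The means were 371 ± 38.7 and 441 ± 30.3 CPM (SD, n = 3 each). The log2 fold change was 0.25 (SE 0.086; adjusted p = 0.0306 by edgeR). This call was weak. It was lost with the replicate number as a block (0.25, edgeR adjusted p = 0.0565), with DESeq2 (0.23, adjusted p = 0.0521), and without parental 2 (0.18, edgeR adjusted p = 0.172), parental 3 (0.20, 0.112), GlnIND 2 (0.22, 0.117) or GlnIND 3 (0.20, 0.135). METTL16, the RNA methyltransferase known to control splicing and stability of the MAT2A transcript, had levels of 62.9 ± 5.49 and 61.7 ± 3.24 CPM (SD, n = 3 each) and a log2 fold change of -0.03 and a 95% interval from -0.22 to 0.16.

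MAT2B was at 127, 151 and 152 CPM in parental and at 182, 162 and 179 CPM in GlnIND libraries. All 3 GlnIND libraries lay above all 3 parental ones, a pattern found in the same direction in 33.7% of tested genes. The log2 fold change was 0.28 (SE 0.084; adjusted p = 0.0163 by edgeR). The call was lost without GlnIND 1 (0.24, edgeR adjusted p = 0.0861) or GlnIND 3 (0.26, 0.0764).

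MAT1A, the catalytic subunit typical of liver, belongs to a list of 9 methionine cycle partners and was singled out after its values were seen. It had 2 counts in the parental libraries together and 138 in the GlnIND libraries, a ratio of 54.2 with an exact 95% Clopper-Pearson interval of 9.41 to 2172 on halved counts. The GlnIND libraries had 2.16 CPM at most, so MAT1A stayed far below MAT2A in CPM, and this interval covers counting error only.

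AHCY, which splits S-adenosylhomocysteine, was at 252, 306 and 326 CPM in parental and at 287, 295 and 281 CPM in GlnIND libraries. The GlnIND values lay inside the parental range. The log2 fold change was -0.03, with a 95% interval from -0.24 to 0.17 (edgeR adjusted p = 0.762). Without parental 1, the lowest library, it was -0.15 (edgeR adjusted p = 0.00499). AHCYL1, an AHCY-like protein that is not known to split S-adenosylhomocysteine, stood at 179 ± 12.9 and 160 ± 4.36 CPM (SD, n = 3 each, edgeR adjusted p = 0.0703), and passed the test without parental 1 (-0.11, 0.0383) or parental 3 (-0.23, 0.0261). ADK, the adenosine kinase that removes the other product, fell by 0.37 on the log2 scale (SE 0.069; adjusted p = 0.00136 by edgeR), from 107 ± 6 to 83.2 ± 2.59 CPM (SD, n = 3 each).

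MTR was at 138, 108 and 103 CPM in parental and at 80.7, 80.2 and 81.2 CPM in GlnIND libraries. The parental libraries were spread, with parental 1 the highest, but all lay above the GlnIND libraries, a pattern found in this direction in 31.3% of tested genes. MTR fell by 0.53 on the log2 scale (SE 0.11; adjusted p = 0.00194 by edgeR), and by 0.40 without parental 1. MTRR, the reductase that keeps the cobalamin of MTR active, was at 87.1, 78.4 and 81.8 CPM in parental and at 93.6, 86.5 and 87.7 CPM in GlnIND libraries. FASTKD3, which overlaps MTRR, had 1479 parental and 2131 GlnIND counts. The ranges of MTRR overlapped, with a log2 fold change of 0.11 and a 95% interval from -0.04 to 0.27 (edgeR adjusted p = 0.194). MTRR passed the test with upper-quartile factors (0.21, edgeR adjusted p = 0.0263), with library totals alone (0.27, 0.00641) and without parental 1 (0.15, 0.0258). Those scalings raised the median over all genes from 0.03 to 0.12 and 0.18, so relative to all genes MTRR moved little between them.

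Over all tested genes 28.4% rose and 27.9% fell, with a median of 0.03. Of the 9 methionine cycle partners 6 were tested, 2 rose, 1 fell and 3 did not pass, with a median of -0.06. Those that rose were MAT1A (adjusted p = 5.8e-05 by edgeR) and 1 gene not reported here, and ADK fell. BHMT and BHMT2, which methylate homocysteine, and GNMT, a methyltransferase that uses up S-adenosylmethionine in liver, had at most 6 counts each over all libraries.

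In the list of cobalamin uptake and handling, all 9 genes were tested, 4 rose, 2 fell and 3 were not called. The median log2 fold change was 0.17. Over all tested genes 28.4% rose and 27.9% fell. TCN2, the blood carrier of cobalamin, rose from 3.63 ± 1.27 to 7.85 ± 0.411 CPM, and MMUT, the mitochondrial mutase that uses the other active cobalamin, from 48.4 ± 0.32 to 72.6 ± 2.05 CPM (SD, n = 3 each). LMBRD1 and ABCD4, which release cobalamin from lysosomes, rose by 0.32 and 0.27 on the log2 scale. MMADHC, which directs cobalamin to MTR or MMUT, and MMAB, which prepares it for MMUT, were lower, with log2 fold changes of -0.24 and -0.44. The receptor CD320 was not called, with parental 1 at 24.7 CPM and the other parental libraries at 43.3 and 44.4 CPM. The latter 5 genes were named after their values were seen. The 4 that rose numbered 2 without GlnIND 1 or GlnIND 3, and the 2 that fell numbered 0 without GlnIND 2, 1 without GlnIND 3 and 0 with library totals alone. Library totals alone also raised the median over all genes, from 0.03 to 0.18.

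**Figure D2:**
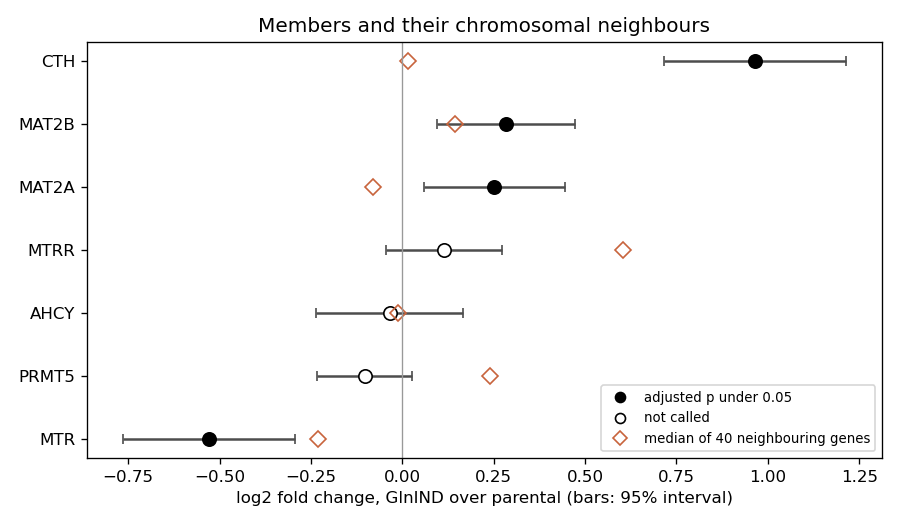
Log2 fold change of GlnIND over parental cells for the 7 tested genes (circles, with 95% intervals from the fitted model) and the median of the 40 tested genes nearest to each in chromosome order (diamonds). CTH stands at 0.96 beside a neighbour median of 0.02, while MTRR stands at 0.11 beside 0.60 and PRMT5 at -0.10 beside 0.24.

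CTH was at 11.1, 10.8 and 11.2 CPM in parental and at 23.9, 21 and 19.8 CPM in GlnIND libraries, from 628 and 1553 counts per group. The parental libraries lay close together and well below every GlnIND library, and 33.7% of tested genes were apart in this direction. The log2 fold change was 0.96 (SE 0.11, 95% interval from 0.72 to 1.21, edgeR adjusted p = 6.98e-05), and it stood between 0.88 and 1.12 under every alternative, called in each. Per kilobase of transcript CTH was nevertheless the lowest of the 7 tested genes in parental cells, at 6.11 CPM per kilobase, against 11 for MTR, 25.2 for MTRR, 68.1 for MAT2B, 70.4 for PRMT5, 132 for MAT2A and 138 for AHCY. MAT2B and PRMT5, and MAT2A and AHCY, did not differ beyond their SD in this order. In GlnIND cells CTH, at 11.9, stood above MTR, at 7.66 CPM per kilobase. That last order depends on the transcript length used: per kilobase of coding sequence CTH was at 17.7 and MTR at 21.3 CPM in GlnIND cells. The order within both pairs in parental cells depends on it too. Per kilobase of coding sequence MAT2A was at 313 and AHCY at 227 CPM, and MAT2B at 143 and PRMT5 at 93.2 CPM. CTH remained the lowest there, at 9.08 CPM.

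The genes whose log2 CPM profile over the 6 libraries came nearest to that of CTH were IL17RB, an interleukin receptor, FAM50B and MT2A, a metallothionein, at distances of 0.13, 0.14 and 0.15. They rose by 0.92, 0.98 and 1.02 on the log2 scale. With 2 groups of 3 libraries, such likeness mostly reflects a group difference of similar size.

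CBS, which joins homocysteine and serine ahead of CTH, was listed at 0 counts in all 6 libraries. The tables also list CBSL, a near-identical copy of CBS on chromosome 21 of the newer genome assembly, likewise at 0 in every library. The stretch of coding sequence around the only base at which they differ is shown here because it bears on how that 0 can be read. Both are from GENCODE release 29, coding bases 639 to 759 counted from the start codon, with the differing base in capitals.
CBS: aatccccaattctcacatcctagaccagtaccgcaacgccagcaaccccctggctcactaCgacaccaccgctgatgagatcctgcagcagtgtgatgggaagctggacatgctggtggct
CBSL: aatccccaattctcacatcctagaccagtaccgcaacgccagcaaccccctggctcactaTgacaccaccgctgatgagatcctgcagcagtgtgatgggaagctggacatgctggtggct

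The best-matching coding sequences, of 1653 bases, had 1 mismatch (C699T, CBS base first), an identity of 99.9%. Of all windows of 100 bases in the CBS coding sequence, 93.6% occur unchanged in a transcript of another gene. That share was 0 for MAT2B, CTH, MTR, MTRR and PRMT5, 1.29% for MAT2A and 2.67% for AHCY. U2AF1, a splicing factor that cells generally need, lies next to CBS, has a copy, U2AF1L5, with an identical coding sequence of 720 bases, and was also listed at 0 in every library. U2AF1L5 had 10 parental and 14 GlnIND counts. SIK1 and SIK1B, another pair of that region, were at 0 as well, while PKNOX1, the gene on the other side of CBS, had 1628 parental and 1767 GlnIND counts. How reads that match more than 1 place were counted is not given in the sources used here. The 0 for CBS can therefore not be read as absence of expression, and of the transsulfuration enzymes CTH alone could be measured.

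MTAP had 0 counts in 5 libraries and 6 counts, 0.25 CPM, in GlnIND 2, which equals the detection floor of 6 counts set for a library. Of 100-base windows in its coding sequence, 27.8% occur in another annotated transcript, against 93.6% for CBS. Counts were near 0 over the whole neighbourhood. In chromosome order, the run of listed genes from HACD4 to IZUMO3 on chromosome 9 held 31 genes, of which 29 were at 0 in every library, and 8 counts in all. It includes CDKN2A, CDKN2B, CDKN2B-AS1, DMRTA1, ELAVL2 and IFNE at 0, and KLHL9 with 2 counts in GlnIND 2. Beside the run, FOCAD had 107 parental and 160 GlnIND counts and TUSC1 had 338 and 450. MLLT3, a transcriptional elongation factor that lies beyond FOCAD, was at 17.7 ± 2.02 in parental and, lower, at 9.96 ± 0.605 CPM in GlnIND libraries (SD, n = 3 each; adjusted p = 0.000326 by edgeR). Several genes of the run, among them the interferon genes, are little transcribed in most cells, and a lost gene and a silent one cannot be told apart by counts.

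**Figure D3:**
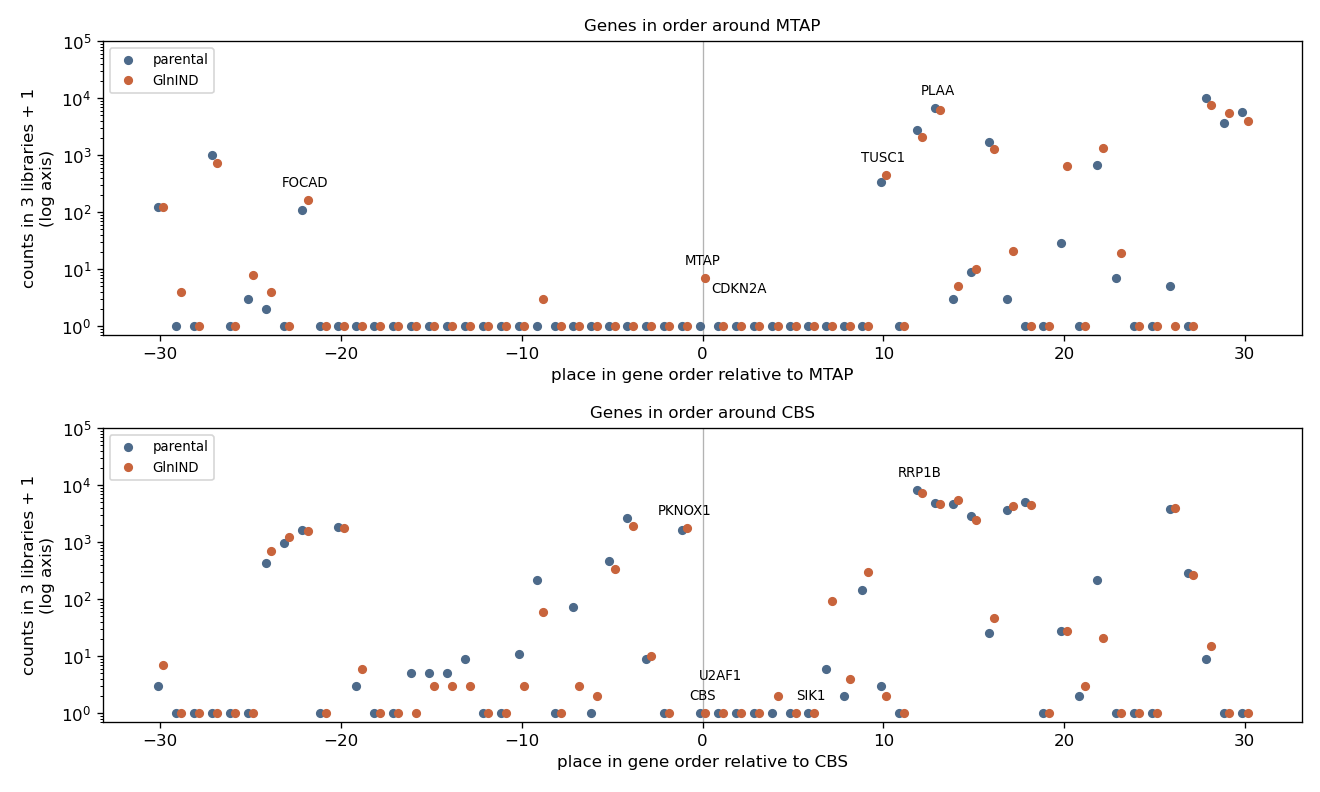
Counts summed over the 3 libraries of each group, plus 1, on a log axis, for the listed genes in chromosome order around MTAP (top) and CBS (bottom). The run of 31 genes that holds MTAP carries 8 counts in all, and CBS, U2AF1 and SIK1 are at 0 between PKNOX1 and RRP1B, which have at least 1628 counts in each group.

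PRMT5, the main enzyme of symmetric arginine dimethylation, was at 176, 181 and 178 CPM in parental and at 169, 166 and 162 CPM in GlnIND libraries. The ranges did not overlap, with GlnIND below, a pattern found in 31.3% of tested genes. The difference was small, with a log2 fold change of -0.10 and a 95% interval from -0.23 to 0.03 (edgeR adjusted p = 0.152). Without parental 1 it was -0.12 (edgeR adjusted p = 0.0228), and with library totals alone it was 0.05 (0.472). That scaling raised the median over all genes from 0.03 to 0.18, and relative to it PRMT5 hardly moved. PRMT5-AS1, an antisense transcript over this gene, had 17 parental and 27 GlnIND counts.

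CLNS1A and RIOK1, which are among the partners through which PRMT5 binds its substrates, both fell. Whether they differed from PRMT5 itself was not tested. COPRS, a further PRMT5 partner named after its values were seen, was not called (-0.16, edgeR adjusted p = 0.169). Without parental 1 COPRS stood at -0.25 (edgeR adjusted p = 0.000907). CLNS1A, the adaptor for spliceosomal Sm proteins, was at 158, 141 and 141 CPM in parental and at 95.3, 91.6 and 95 CPM in GlnIND libraries. It fell by 0.64 on the log2 scale (SE 0.069; adjusted p = 4.55e-05 by edgeR). RIOK1, the alternative adaptor, was at 143, 108 and 116 CPM against 83.4, 77.7 and 76.6 CPM and fell by 0.63 (SE 0.10; adjusted p = 0.000602 by edgeR). For both adaptors every GlnIND library lay below every parental one, a pattern found in this direction in 31.3% of tested genes. WDR77, the constant partner of PRMT5, stood at 81.1 ± 10.5 and 73.6 ± 0.65 CPM (SD, n = 3 each, edgeR adjusted p = 0.224), and at -0.24 without parental 1 (edgeR adjusted p = 0.000642).

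Over the 12 PRMT family genes and partners, 11 were tested, 1 rose, 3 fell and 7 were not called. The median log2 fold change was -0.14 against 0.03 over all genes, of which 28.4% rose and 27.9% fell. PRMT3, which methylates a ribosomal protein, fell from 85.3 ± 0.976 to 56.3 ± 0.766 CPM, and PRMT7, which makes monomethylarginine, rose from 25.1 ± 1.83 to 31.8 ± 0.849 CPM (SD, n = 3 each). PRMT1, the main asymmetric enzyme, was not called, at 267, 332 and 354 CPM in parental and 321, 310 and 299 CPM in GlnIND libraries. These 3 were named after their values were seen. Without parental 1, 7 of the list fell, PRMT1 among them (-0.16, edgeR adjusted p = 0.00276). Leaving out that library also raised the calls over all genes, to 4601 higher and 4679 lower of 14232 tested.

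Methylthioadenosine, the substrate of MTAP, arises where polyamines are made. In the list of its production and of methionine salvage, all 7 genes were tested, 1 rose, 4 fell and 2 were not called. The median log2 fold change was -0.24. Over all tested genes 28.4% rose and 27.9% fell. SRM, spermidine synthase, was at 129, 144 and 156 CPM in parental and at 80.2, 80.6 and 82.9 CPM in GlnIND libraries. It fell by 0.82 on the log2 scale (SE 0.078; adjusted p = 2.29e-05 by edgeR). AMD1, which decarboxylates S-adenosylmethionine for this branch, fell by 0.24 (SE 0.058; adjusted p = 0.00517 by edgeR), a call that was lost with library totals alone (-0.09, 0.2). That scaling raised the median over all genes from 0.03 to 0.18, and relative to it AMD1 hardly moved. MRI1, which acts next to MTAP in salvage, was at 18.2, 19.0 and 19.8 CPM in parental and at 34.4, 33.3 and 35.2 CPM in GlnIND libraries and rose by 0.85 (SE 0.087; adjusted p = 3.28e-05 by edgeR). APIP and ENOPH1, the following salvage enzymes, were lower, with log2 fold changes of -0.46 and -0.76. ADI1 and SMS, spermine synthase, were not called. APIP, ENOPH1, ADI1 and SMS were named after their values were seen.

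**Figure D4:**
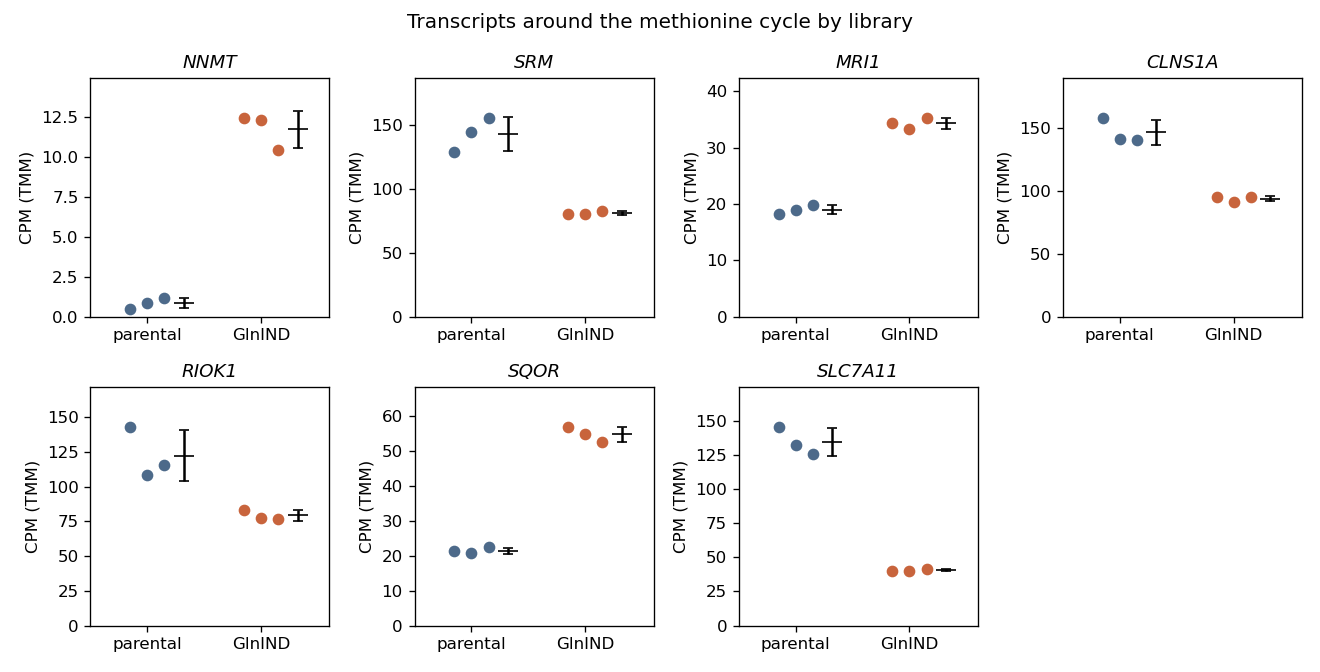
CPM (TMM-scaled, axes from 0) of 7 genes around the methionine cycle in each of 3 parental and 3 GlnIND libraries, in the order of their replicate numbers, with the group mean and SD as a black bar. NNMT, MRI1 and SQOR lie higher and SRM, CLNS1A, RIOK1 and SLC7A11 lower in all GlnIND libraries. Groups lay fully apart in 65.0% of all tested genes.

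NNMT, which methylates nicotinamide at the expense of S-adenosylmethionine, had the largest fold change among the named genes with over 6 counts in each group. It was at 0.496, 0.858 and 1.14 CPM in parental and at 12.4, 12.3 and 10.4 CPM in GlnIND libraries, from 47 and 844 counts. The fold was 14.0, a log2 fold change of 3.81 (SE 0.24; adjusted p = 1.63e-06 by edgeR). TPMT, a thiopurine methyltransferase, and HNMT, which methylates histamine and was named after its values were seen, were lower, with log2 fold changes of -0.64 and -0.62. Of the 10 small-molecule methyltransferases 6 were tested, 1 rose, 2 fell and 3 did not pass, with a median of 0.07. Over all tested genes 28.4% rose and 27.9% fell.

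Below CTH, 12 genes of cysteine use, glutathione synthesis and sulfide handling were listed and 11 tested. Of these 3 rose, 3 fell and 5 were not called, with a median log2 fold change of 0.15. Over all tested genes 28.4% rose and 27.9% fell. SQOR, MPST and ETHE1 rose, while TST and SUOX, which also handle oxidised sulfur, had log2 fold changes of 0.15 and 0.24 and were not called. SQOR, the mitochondrial sulfide quinone oxidoreductase, was at 21.3, 20.7 and 22.4 CPM in parental and at 56.9, 54.8 and 52.7 CPM in GlnIND libraries, a log2 fold change of 1.35 (SE 0.081; adjusted p = 1.35e-06 by edgeR). MPST and ETHE1, further enzymes of sulfur transfer and persulfide oxidation, rose by 0.64 and 0.49 on the log2 scale. Without parental 1, ETHE1 stood at 0.32. ETHE1, MPST, TST, SUOX and GSS were named after their values were seen. SLC7A11, GCLM and GSS fell. SLC7A11, the cystine importer, was 3.33-fold lower, GCLM, the modifier subunit of glutamate-cysteine ligase, fell from 102 ± 6.26 in parental to 74.9 ± 1.92 CPM in GlnIND libraries (SD, n = 3 each), and GSS, glutathione synthetase, fell by 0.31 on the log2 scale. The catalytic subunit GCLC was not called, at 46.1 ± 4.38 and 51.4 ± 0.413 CPM (SD, n = 3 each, edgeR adjusted p = 0.149), though it passed with upper-quartile factors (0.25, 0.0298), library totals (0.31, 0.0102) and without parental 1 (0.19, 0.0179). The first 2 of these scalings raised the median over all genes as well, to 0.12 and 0.18, and relative to it GCLC hardly moved. With upper-quartile factors or library totals 5 genes of the list rose.

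Of 7 transporters that can carry methionine 6 were tested, 3 rose, 2 fell and 1 was not called, with a median of 0.20. Over all tested genes 28.4% rose and 27.9% fell. SLC7A5, the main leucine and methionine exchanger, was at 376, 557 and 566 CPM in parental and at 317, 302 and 283 CPM in GlnIND libraries and fell by 0.73 on the log2 scale (SE 0.14; adjusted p = 0.00137 by edgeR). Its partner SLC3A2 was not called. SLC43A2 fell by 0.97, while SLC38A2, SLC1A5 and SLC43A1 rose by 0.41, 0.32 and 0.43 on the log2 scale. SLC1A5 stood at 0.17 without parental 1, and at -0.17 (adjusted p = 0.237 by edgeR) once the shift of its chromosomal neighbours was removed. The latter 3 genes and SLC3A2 were named after their values were seen, and the 3 that rose numbered 1 without GlnIND 1 or GlnIND 2.

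**Figure D5:**
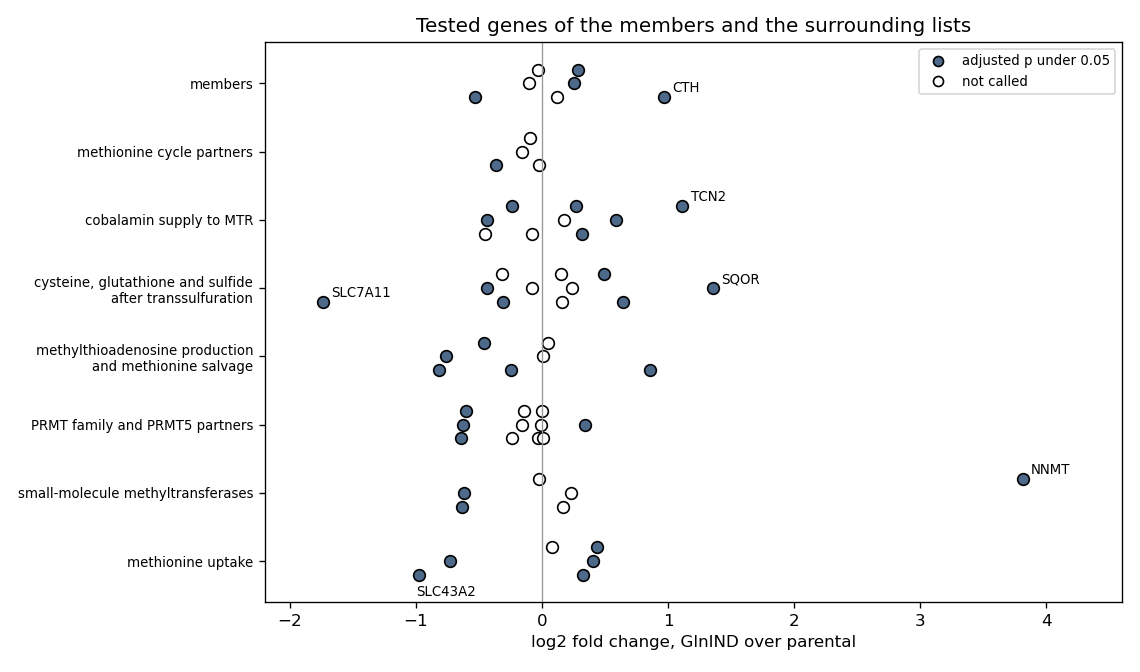
Log2 fold change of GlnIND over parental cells for the tested genes of the 9 enzymes and of the lists around them. MAT1A, which was called higher but whose fitted value rests on 2 parental counts, and 1 gene not reported here, also called higher, are left out. Filled circles passed the edgeR test, and genes beyond 0.9 in either direction are named; called genes lie on both sides of 0 in each list except the methionine cycle partners, where the only circle drawn filled is ADK.

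Expression differed between the groups over stretches of neighbouring genes, which bears on several of these values. The median log2 fold change of the 40 tested genes nearest in chromosome order was 0.60 around MTRR, 0.24 around PRMT5, 0.14 around MAT2B, 0.02 around CTH, -0.01 around AHCY, -0.08 around MAT2A and -0.23 around MTR. With that median subtracted, MTRR turned to -0.49 (edgeR adjusted p = 0.000414), PRMT5 stood at -0.34 (0.00095) and MTR at -0.30 (0.0392), and MAT2B lost its call (0.14, 0.196). MAT2A was then at 0.33, CTH at 0.95 and AHCY at -0.02 (0.849). Of the other genes, CLNS1A stood at -0.32, RIOK1 at -0.35, PRMT3 at -0.35, TPMT at -0.32, MRI1 at 0.46, SLC7A5 at -0.43 and MLLT3 at -0.47, all still called. Calls were lost for APIP (-0.17), ETHE1 (-0.05), SLC1A5 (-0.17), LMBRD1 (0.19), ABCD4 (0.02), MMADHC (-0.19) and MMAB (-0.19), of which ETHE1 and SLC1A5 changed sign. Calls were gained, lower, for AHCYL1 (-0.50), WDR77 (-0.39), PRMT1 (-0.39), COPRS (-0.25), CARM1 (-0.21) and SMS (-0.33), and, higher, for AHCYL2 (0.51), SUOX (0.51) and ADI1 (0.28). NNMT, whose neighbours had a median of -0.94, stood at 4.75. These p-values treat the subtracted median as known. What makes these stretches differ was not tested.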

How the data were processed

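RNA counts of 3 parental and 3 GlnIND libraries were analysed. The authors deposited raw counts per gene symbol, made with STAR and featureCounts on build hg19 per the submitters' processing notes; FastQC and DESeq were also named. Versions, annotation, strandedness and the handling of reads with several matches are not given in the sources used here. CBSL, a symbol of GRCh38, is listed although hg19 is named. Per-library tables were used; the deposited matrix held the same counts with replicates 1 and 3 exchanged within each group (100% of genes equal after exchange).

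Counts were tested with edgeR 4.0.16 in R 4.3.3 (glmQLFTest, two-sided, TMM factors, filterByExpr with a minimum count of 10 and total of 15, group as the only term); 13949 of 28265 genes were tested, holding 99.9% of counts, with a common biological coefficient of variation of 9.79%. A permutation test of 3 against 3 cannot give p under 0.1. SE came from the F statistic. Small counts were mostly even (60.6% to 65.0% of counts under 20), as when both reads of a pair are counted, so the detection floor was 6 counts, 0.23 to 0.343 CPM per library. The Clopper-Pearson interval and the floors cover counting error only. Intervals from the fitted model rest on the SE and so also reflect the spread among the libraries. Gene order came from RefSeq on GRCh38.p14, which placed 13787 tested genes, and lengths and shared windows from GENCODE release 29, neither being the build named for the counts. Steps were tested on simulated data.

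Members and lists were chosen with earlier results of these data known. The 9 enzymes, the genes fixed by name, and the 2 called genes of largest change per list with a mean of at least 1 CPM were named by rule; others are marked in the text. The result for 1 gene of these lists is not reported here. Alternatives were RLE, upper-quartile and no composition factors, no filter, at least 1 CPM in 3 libraries, each library left out, a replicate block, DESeq2 1.42.0, limma-voom (limma 3.58.1) and removal of the neighbour median. The main test took no pairing from the replicate numbers, since the labels do not say that they mark a shared batch.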

Additional observations from a re-analysis of the deposited data

How the results depend on the processing

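CTH and MTR kept their direction and call under all alternatives run. The 3 member genes higher in GlnIND cells numbered 1 to 4 when each library was left out in turn (1 without GlnIND 3, where CTH remained called), and the 1 gene lower numbered 1 to 3 (3 without parental 1). With the replicate block 2 members rose and 1 fell, since MAT2A was lost (0.25, edgeR adjusted p = 0.0565); the block changed no other call among the named genes. Deviations of same-numbered libraries correlated at -0.06, 0.03 and -0.04, so the numbers gave no sign of pairing, and only replicate 2 correlated best with its own number. With the neighbour median removed 3 members fell, MTRR reversing to -0.49, 2 methionine cycle partners and 7 PRMT genes fell, 2 cobalamin genes rose and 0 fell, and 2 salvage genes rose. With library totals 5 genes of cysteine and sulfide, 2 of salvage and 2 small-molecule methyltransferases rose and 0 cobalamin genes fell. Library totals raised the median over all genes from 0.03 to 0.18, and MAT2A to 0.41. With upper-quartile factors 5 genes of cysteine and sulfide rose and 1 cobalamin gene fell. Leaving out each library in turn, the genes that rose numbered 2 to 4 for cobalamin, 1 to 3 for methionine uptake, 1 to 2 for salvage and 1 to 2 for small-molecule methyltransferases. Those that fell numbered 1 to 2 for cycle partners, 0 to 3 for cobalamin and 3 to 7 for PRMT genes. CBS, with 0 counts in all, was given no fold change under any alternative. MTAP, with 6 counts in all, entered the fits without a filter and with DESeq2. It was called in neither, and no fold change is given for it here.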
